A study of Mus musculus with 16 samples.

Results

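The genes described here are Fshr, which encodes the receptor for follicle-stimulating hormone (FSH), and Lhcgr, which encodes the receptor for luteinizing hormone (LH). They were chosen by name: every probe that the array files, or the current symbol of the probe's accession, assign to Fshr or Lhcgr was taken. This gave 2 of the 19505 genes named on the array, each with 1 probe, and both probes were well above background on 16 of 16 arrays, with no outlier and no saturated spot. The measurements are single-colour (Cy3) Agilent whole mouse genome arrays. RNA was taken from whole ovaries when the mice were 1 year old. There were 16 arrays, 4 in each of 4 groups. Ex3aERKO denotes ovaries of mice with a knockout of the estrogen receptor ERα, Ex3bERKO those of ERβ knockouts and Ex3abERKO those of animals without either receptor, while controls had one allele of each. The knockout is of the whole animal as the labels describe it, so the pituitary, which makes FSH and LH, lacks the receptors too, and neither hormone levels nor cycle stage are given in the sources used here. The controls are themselves described as carrying a reduced dose of both receptors, and the labels do not say whether the 4 ovaries of a group came from separate mice, so p-values measure the spread between these samples.

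FSHR and LHCGR are G protein-coupled receptors with a large leucine-rich outer domain that binds the hormone. Both activate adenylyl cyclase through Gs, and the cAMP made switches on protein kinase A and the exchange factors called Epac. In the ovary FSHR is found on granulosa cells, where it drives follicle growth and aromatase, whereas LHCGR is found on theca cells, on granulosa cells of follicles close to ovulation and on luteal cells, where it drives androgen synthesis, ovulation and progesterone synthesis. In the testis the counterparts are Sertoli cells for FSHR and Leydig cells for LHCGR.

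The Fshr probe, the only sequence through which this transcript was read, is 60 bases long and lies on the minus strand at chr17:87292342-87292401 of the mm7 build named in the array files. The Lhcgr probe, of the same length and strand, lies at chr17:87049193-87049252, and no exon is given for either because an annotation of that build was not used here.
Fshr probe: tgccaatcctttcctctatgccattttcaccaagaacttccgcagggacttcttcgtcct

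The sequences before the start of the genes are shown as a description. They share neither base composition nor the motifs searched, and a link to the receptor levels was not tested. Each is the 250 bases upstream of the RefSeq start on GRCm38.p6, on the minus strand, at chr17:89200676-89200925 for Fshr and chr17:88792015-88792264 for Lhcgr. Capitals mark the motif matches found on either strand.
Fshr: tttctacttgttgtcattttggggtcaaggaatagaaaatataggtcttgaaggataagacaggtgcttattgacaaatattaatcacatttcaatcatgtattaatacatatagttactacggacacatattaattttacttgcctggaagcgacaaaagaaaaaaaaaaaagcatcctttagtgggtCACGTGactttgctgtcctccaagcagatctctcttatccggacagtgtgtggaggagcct
Lhcgr: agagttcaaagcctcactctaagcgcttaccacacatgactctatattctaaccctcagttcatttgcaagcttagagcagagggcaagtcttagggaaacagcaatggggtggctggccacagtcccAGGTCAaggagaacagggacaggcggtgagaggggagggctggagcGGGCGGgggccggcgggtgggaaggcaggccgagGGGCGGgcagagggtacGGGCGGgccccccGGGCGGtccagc

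The Fshr window held 36.8% G and C and the Lhcgr window 63.2%, against a median of 52.4% over 32851 RefSeq promoters. CACGTG, the E-box to which upstream stimulatory factors bind, occurred 1 time in the Fshr window, with its first base at position -61 from the start, and not in that of Lhcgr. It was present in 6.02% of all promoters of this length. GGGCGG, the GC box to which Sp1 and Sp3 bind, occurred 4 times before Lhcgr, at positions -76, -42, -25 and -12, and not before Fshr, and 32.7% of promoters held it. AGGTCA, a core site of nuclear receptors, occurred 1 time before Lhcgr, at position -122, and was present in 14.0% of promoters. Neither window held the estrogen response element, searched as GGTCA followed after any 3 bases by TGACC, which shares letters with AGGTCA and was present in 0.0639% of promoters, nor TATAAA, present in 12.4%. The motifs were chosen with these sequences in view, and a match is only a match of letters.

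Levels are log2 of the scanner's processed signal after division by the 75th percentile of the same array, so 0 is the level of the probe at that percentile and 1 unit is a doubling. A group difference was called when limma's p-value, adjusted by Benjamini-Hochberg over all 24367 features tested, was under 0.05. Where groups are said not to overlap, this is a description, and the share of all features without overlap was not counted. The 75th percentile signal ran from 1211 to 1806 over the arrays and 80.4% to 87.6% of probes were well above background. The Foxl2 probe, which marks granulosa cells, had group means from -2.49 ± 0.14 to -2.27 ± 0.17 (SD, n = 4 each). However, 6 of 14 granulosa markers were lower in Ex3abERKO than in control (list median -1.12), beside 11.7% of all features. Esr2, a targeted gene, is 1 of these 6 (adjusted p = 0.0132, limma), so its fall is no separate support. The probe for Zp3, a zona pellucida protein of oocytes, averaged 1.74 ± 0.50 in control and 2.45 ± 0.69 in Ex3bERKO, but -1.39 ± 1.10 in Ex3aERKO and -0.78 ± 0.17 in Ex3abERKO (SD, n = 4 each). The Esr1 probe used (ERα) ran from -0.32 to 0.20 in control and from -1.06 to 0.34 in Ex3bERKO, against -3.66 to -1.89 in Ex3aERKO and -2.11 to -1.04 in Ex3abERKO. Another Esr1 probe differed from control by -1.16 in Ex3aERKO (adjusted p = 0.359, limma) and -1.48 in Ex3abERKO (adjusted p = 0.115), neither called. The Esr2 probe (ERβ) ran from -0.58 to 1.00 in Ex3bERKO and overlapped the control range of -0.33 to 0.34, but was between -2.54 and -1.61 in Ex3abERKO. The deleted part of each gene is not given in the sources used here, so a probe outside it does not check a label. Liver markers were highest in Ex3aERKO 2, surface epithelium and oviduct markers in Ex3abERKO 2 and erythroid markers in control 4. Liver and epithelial markers were also above control in other knockout ovaries, as given with the markers below. Calls of named genes that ended without these 3 arrays, and list counts that moved by over 1.5 times, are given beside the result.

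Fshr was highest in Ex3aERKO ovaries and lowest in Ex3abERKO ovaries. In control ovaries its level was -1.02, -0.08, -1.0 and -1.37 in replicates 1 to 4 (mean -0.87 ± 0.55, SD, n = 4). In Ex3aERKO ovaries it was 0.83, -0.37, -0.32 and 1.44 (0.40 ± 0.89, SD, n = 4). Control 2 stood above the other control ovaries and above Ex3aERKO 2 and 3, so these groups overlapped, while Ex3aERKO 1 and 4 were higher than every other ovary of the series. In Ex3bERKO ovaries Fshr was -0.32, -0.68, -0.38 and -0.03 (-0.35 ± 0.27, SD, n = 4), a range that overlapped both the control and the Ex3aERKO ovaries. In Ex3abERKO ovaries it was -1.53, -2.25, -2.25 and -1.65 (-1.92 ± 0.38, SD, n = 4), and each of these ovaries was below each of the other 12. In the order Ex3aERKO, Ex3bERKO, control, Ex3abERKO, no neighbouring groups differed by a call, although control and Ex3abERKO did not overlap.

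Lhcgr followed another order: it was highest in control ovaries, intermediate in both single knockouts and lowest, far below the rest, in Ex3abERKO ovaries. The control ovaries read 0.67, 0.50, 0.07 and 1.02 (0.56 ± 0.39, SD, n = 4). The Ex3aERKO ovaries read 0.57, -0.14, -0.91 and -1.17 (-0.41 ± 0.78, SD, n = 4), with replicate 1 inside the control range and the other 3 below it. The Ex3bERKO ovaries read 0.56, -1.91, -0.87 and 0.45 (-0.44 ± 1.17, SD, n = 4), the widest spread of any group, with replicates 1 and 4 among the control values and replicates 2 and 3 below all of them. The Ex3abERKO ovaries read -2.43, -4.21, -3.94 and -4.59 (-3.79 ± 0.95, SD, n = 4). Even Ex3abERKO 1, the highest of these, was below the lowest ovary of every other group. Neither the control and Ex3aERKO groups nor the single knockouts differed by a call, so only the step down to Ex3abERKO passed.

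**Figure D1:**
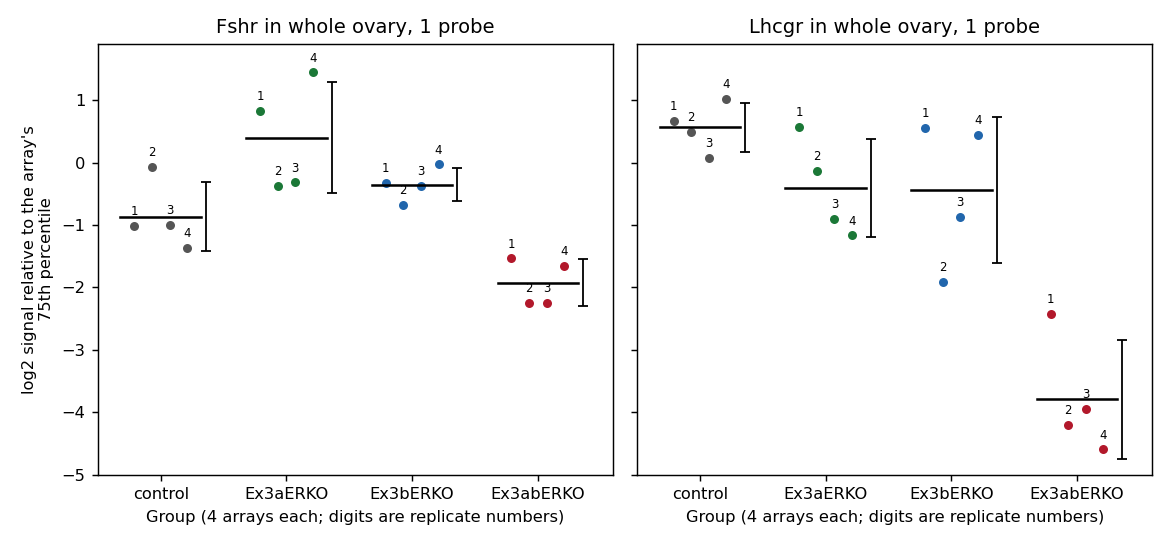
Level of the Fshr probe (left) and of the Lhcgr probe (right), as log2 signal relative to the array's 75th percentile, in each of the 4 groups. Points are ovaries with their replicate number, the line is the mean and the bar 1 SD (n = 4); the Ex3abERKO ovaries lie below all others for both genes, from -2.25 to -1.53 for Fshr and from -4.59 to -2.43 for Lhcgr.

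Loss of ERα was examined by comparing Ex3aERKO with control. Fshr was 1.26 ± 0.38 higher on the log2 scale (SE, 2.40-fold, 95% interval 0.45 to 2.08) and missed the threshold (adjusted p = 0.0576, limma). It was higher within each of the 4 slides, by 0.65, 1.05, 0.90 and 2.44, and with the slide as a block it passed (adjusted p = 0.0192, limma), as it did without control 2, Ex3aERKO 2 or Ex3aERKO 3 (1.5 to 1.53, adjusted p = 0.0298 to 0.0434). Lhcgr was 0.97 lower (difference -0.97 ± 0.57, SE, interval -2.19 to 0.24), a difference that was not called (adjusted p = 0.374), and within the slides it was -0.81, -1.93, 0.07 and -1.24. Of all features 8.03% were called in this comparison, 3.83% higher and 4.2% lower, and neither receptor was among them.

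For loss of ERβ alone, Ex3bERKO was compared with control. Fshr differed by 0.51 ± 0.38 (SE, interval -0.30 to 1.33, adjusted p = 0.792, limma) and Lhcgr by -1.01 ± 0.57 (SE, interval -2.22 to 0.21, adjusted p = 0.645). These intervals leave room for Fshr being over 2-fold higher and for Lhcgr being over 4-fold lower. Calls were few over the whole array, 1.01% of features, with 0.386% higher and 0.628% lower. With normexp background correction the share of calls that were higher was 27.7% in place of 38.1%.

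Loss of both receptors gave the lowest Lhcgr levels. Against control, Lhcgr fell by 4.36 on the log2 scale (SE 0.57, 20.5-fold, interval -5.57 to -3.14, adjusted p = 0.000192, limma), and all 4 Ex3abERKO ovaries were lower than all 4 control ovaries. The fall was alike within the 3 slides that held both groups, -4.61, -4.34 and -4.67. By unadjusted p Lhcgr stood at rank 234 of 24367 features. Fshr was 2.08-fold lower (-1.06 ± 0.38, SE, interval -1.87 to -0.24) but missed the threshold (adjusted p = 0.061), with within-slide values of -1.23, -0.52 and -0.65. It passed without Ex3aERKO 2 or Ex3aERKO 4, which leave the value as it is and change the estimate of the spread (adjusted p = 0.0275 to 0.0496). In this comparison 22.3% of all features were called, 10.6% higher and 11.7% lower.

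When ERβ was lost in ovaries that already lacked ERα (Ex3abERKO against Ex3aERKO), both receptors fell. Fshr fell by 2.32 (SE 0.38, 4.99-fold, interval -3.13 to -1.50, adjusted p = 0.00304, limma) and within slides by -1.88, -1.58 and -3.10. Lhcgr fell by 3.38 (SE 0.57, 10.4-fold, interval -4.60 to -2.16, adjusted p = 0.00352), and within slides the difference was -3.80, -2.41 and -3.43. The groups did not overlap for either gene, and 7.73% of features were called, 4.4% higher and 3.32% lower.

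When ERα was lost in ovaries that already lacked ERβ (Ex3abERKO against Ex3bERKO), both receptors fell as well. Fshr fell by 1.57 (SE 0.38, 2.97-fold, interval -2.38 to -0.75, adjusted p = 0.0129, limma), with -1.57 and -1.27 in the slides that held both groups, and with the slide as a fixed block the value was -1.11 and no longer passed (adjusted p = 0.0601). Lhcgr fell by 3.35 (SE 0.57, 10.2-fold, interval -4.57 to -2.13, adjusted p = 0.0017), with -2.03 and -3.72 within those slides. Of all features 16.6% were called, 8.23% higher and 8.41% lower. All comparisons with Ex3abERKO share its 4 ovaries.

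The single knockouts were also set against each other, where 2.34% of features were called. Ex3aERKO minus Ex3bERKO was 0.75 for Fshr (interval -0.07 to 1.56, adjusted p = 0.446, limma) and 0.03 for Lhcgr (interval -1.19 to 1.25, adjusted p = 0.991). The interaction asks whether the effect of losing ERβ depends on ERα, and for Fshr it passed: the ERβ effect was 2.83 lower where ERα was absent (-2.83 ± 0.54, SE, interval -3.98 to -1.68, adjusted p = 0.0111). For Fshr the difference was 0.51 with ERα present and -2.32 with ERα absent. For Lhcgr the interaction was -2.38 ± 0.81 (SE, interval -4.10 to -0.65) and did not pass (adjusted p = 0.136). The interaction was called for 3.56% of features, 1.82% higher and 1.74% lower, and with normexp the share of calls that were higher was 61.7% in place of 51.1%.

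**Figure D2:**
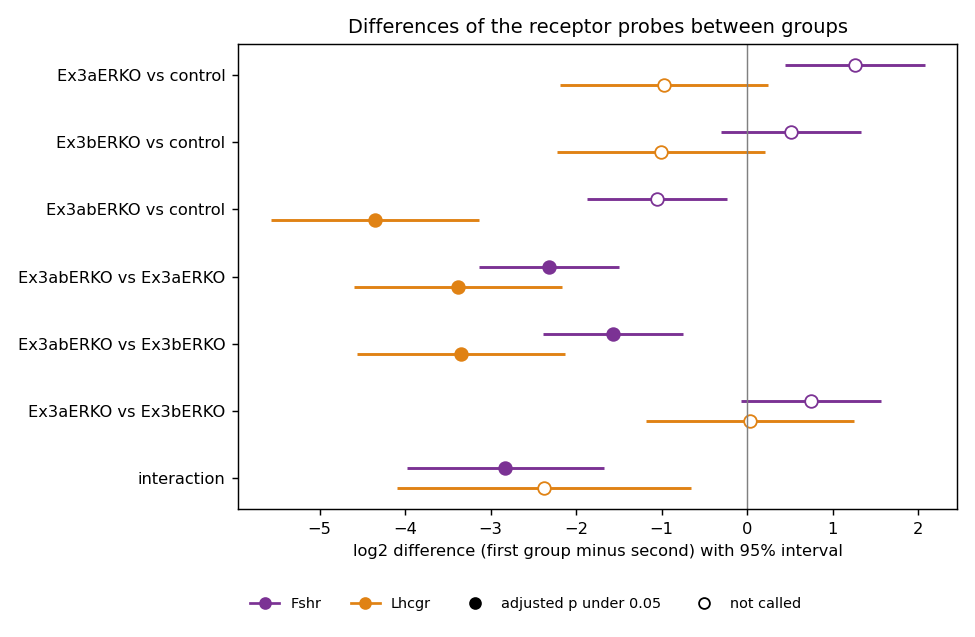
Difference of the Fshr and Lhcgr probes between groups, on the log2 scale, with its 95% interval; filled points have an adjusted p under 0.05 and the last row is the interaction of the knockouts. Lhcgr was lower in Ex3abERKO than in each other group (-4.36 to -3.35), and Fshr stands on opposite sides of 0 in Ex3aERKO (1.26) and Ex3abERKO (-1.06) against control, neither of which was called.

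Whether the receptors changed unequally was asked with the difference Lhcgr minus Fshr within each array, which cancels the array's scale. Because probes differ in brightness, only its change between groups is read, not its sign. The control ovaries gave 1.68, 0.57, 1.07 and 2.39. With ERα lost the values were -0.26, 0.23, -0.59 and -2.61, with ERβ lost they were 0.88, -1.23, -0.49 and 0.48, and with both lost -0.89, -1.95, -1.69 and -2.94. All Ex3aERKO and all Ex3abERKO ovaries were below all control ovaries, while Ex3bERKO 1 lay within the control range. Relative to Fshr, Lhcgr was thus 4.71-fold lower than in control in Ex3aERKO, 2.86-fold lower in Ex3bERKO and 9.85-fold lower in Ex3abERKO. The exact two-sided permutation p was 0.0286, 0.0571 and 0.0286, and 0.0286 is the smallest that 4 against 4 arrays allow. After adjustment over the 6 pairs of groups each of these was 0.0856, so none passed. Ex3abERKO against Ex3bERKO gave 3.44-fold (exact p = 0.0571, adjusted 0.0856), against Ex3aERKO a difference of -1.06 (exact p = 0.229, adjusted 0.275), and the single knockouts differed by -0.72 (exact p = 0.4, adjusted 0.4). Within slides the difference from control was -1.45, -2.98, -0.83 and -3.68 for Ex3aERKO, -2.91, 0.11 and -1.57 for Ex3bERKO, and -3.38, -3.81 and -4.01 for Ex3abERKO. Over the 16 arrays the levels of the receptors had a Pearson correlation of 0.592, and the deviations from the group means one of 0.142, given as a description.

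**Figure D3:**
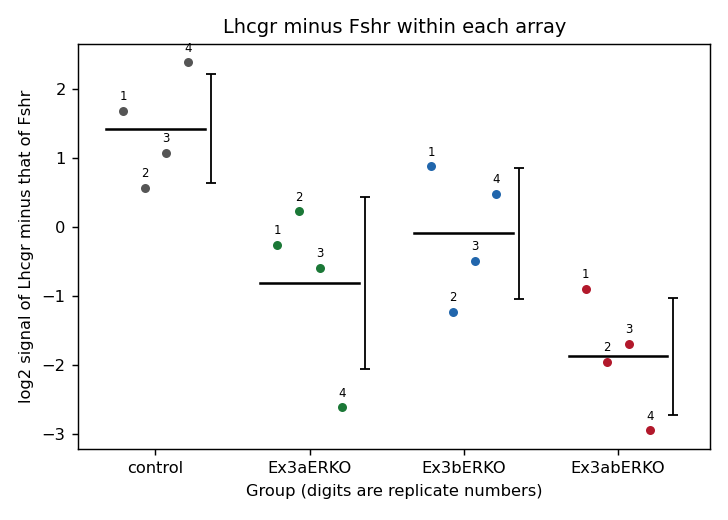
Lhcgr minus Fshr within each array on the log2 scale, by group, with the mean as a line and 1 SD as a bar (n = 4). The 4 control ovaries lie between 0.57 and 2.39, above all Ex3aERKO (-2.61 to 0.23) and all Ex3abERKO ovaries (-2.94 to -0.89).

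The hormones that bind these receptors are made in the pituitary. In ovary RNA none of the 3 subunit genes was called in a comparison with control with all arrays in the fit. In Ex3abERKO against control the common subunit Cga differed by 1.14 ± 0.56 (SE, adjusted p = 0.17, limma), and by 1.61 without Ex3abERKO 4, which passed (adjusted p = 0.0491). Fshb differed by 0.03 (adjusted p = 0.968) and Lhb by 0.27 (adjusted p = 0.714), with a second Lhb probe at -0.35 (adjusted p = 0.414). Among 6 other receptors with leucine-rich repeats, which include the thyrotropin and relaxin receptors, 1 was called in the same comparison, beside 22.3% of all features. This was Lgr5, a receptor for R-spondins, which fell by 1.15 (SE 0.39, 2.22-fold, adjusted p = 0.0471). The Lgr5 call was lost when any 1 of 12 arrays was left out (adjusted p = 0.0527 to 0.103), namely any control or Ex3abERKO ovary, Ex3aERKO 1 or 3, or Ex3bERKO 1 or 2. It was also lost with median scaling, normexp, quantile normalization, no filter, the slide as a block or without control 4, Ex3aERKO 2 and Ex3abERKO 2 together. No gene of this family was called in either single knockout against control with all arrays. In Ex3aERKO 1 was lower without Ex3aERKO 2 or Ex3bERKO 4, and in Ex3bERKO 1 was lower without Ex3abERKO 3. With all arrays 4.2% of all features were lower in Ex3aERKO and 0.628% in Ex3bERKO.

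Downstream of the receptors, 31 genes of cAMP and protein kinase A signalling were measured. In Ex3abERKO against control 6 rose and 3 fell, beside 10.6% and 11.7% of all features, with a list median of 0.05 against -0.10 for all features. Without control 4 these were 3 and 2, and without control 4, Ex3aERKO 2 and Ex3abERKO 2 together 2 and 2. Pkib, an inhibitor of protein kinase A, was 4.21-fold higher (2.07 ± 0.32, SE, adjusted p = 0.000496, limma), and Adcy7, an adenylyl cyclase, 2.55-fold higher (1.35 ± 0.19, SE, adjusted p = 0.000294). The other Pkib probes read 1.63 (adjusted p = 0.0456) and 0.70, which was not called (adjusted p = 0.153). Rapgef4, which encodes the cAMP-activated exchange factor Epac2, was 3.95-fold lower (-1.98 ± 0.31, SE, adjusted p = 0.000617), but 1 of its other 2 probes read 0.24 (adjusted p = 0.736). The Rapgef4 probe used was also lower than in Ex3aERKO (4.18-fold, adjusted p = 0.00198) and Ex3bERKO (3.99-fold, adjusted p = 0.00114). In Ex3aERKO 1 gene of the list rose, Adcy7 (1.08 ± 0.19, SE, adjusted p = 0.00329), and 1 fell, Adcy4, also an adenylyl cyclase (-1.24 ± 0.21, SE, adjusted p = 0.00232). Each count was 2 without control 2 or Ex3abERKO 3, and 2 rose without Ex3aERKO 4. Of all features 3.83% rose and 4.2% fell in Ex3aERKO. In Ex3bERKO Adcy7 alone was called (1.09 ± 0.19, SE, adjusted p = 0.012), and that call was lost without control 1 or control 3 (adjusted p = 0.0513 to 0.0518), without those 3 arrays together or with only the groups compared. Without control 2, 1 gene of the list was also lower there.

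Receptor desensitisation and mRNA decay were covered by 11 genes. In Ex3abERKO 4 rose and 1 fell (2 without Ex3abERKO 3), beside 10.6% and 11.7% of all features, with a list median of 0.07. Arrb2 and Arrb1 encode the β-arrestins, which bind activated receptors and carry them into the cell. Arrb2 was 2.21-fold higher (1.14 ± 0.15, SE, adjusted p = 0.000193, limma) and Arrb1 1.74-fold higher (0.80 ± 0.16, SE, adjusted p = 0.00225). The other Arrb1 probe read 0.40 and was not called (adjusted p = 0.194). Grk5, a kinase that marks receptors for arrestin, was 1.5-fold higher (adjusted p = 0.0185), a call that was lost without control 1 or control 3 (adjusted p = 0.054 to 0.061) or without control 4, Ex3aERKO 2 and Ex3abERKO 2 together. The other Grk5 probe read 0.54 and was not called (adjusted p = 0.0711). Rgs2, which shortens G protein signalling, was 1.95-fold higher (adjusted p = 0.00995), and not called with only the groups compared. Mvk, the mevalonate kinase that is also known to bind Lhcgr mRNA and speed its decay, was 3.01-fold lower (-1.59 ± 0.36, SE, adjusted p = 0.00625). In Ex3aERKO 1 of the 11 rose, beside 3.83% of all features. This was Rgs2 (1.82-fold, adjusted p = 0.04). The Rgs2 call was lost when any Ex3aERKO ovary, control 1, 3 or 4, or Ex3bERKO 4 was left out (adjusted p = 0.0514 to 0.119). It was also lost with median scaling, normexp, the slide as a block or those 3 arrays left out. In Ex3bERKO none of the 11 was called with all arrays, and 1 was higher without Ex3abERKO 3.

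Transcription factors known to act on these genes' promoters, or on receptor expression in follicle cells, gave 16 measured genes. In Ex3abERKO 7 fell and none rose (1 rose without Ex3abERKO 3), beside 11.7% and 10.6% of all features. The list median of -0.14 was close to the median of all features, -0.10. The count fell to 3 without control 1 or with normexp, and to 4 without control 3, without Ex3abERKO 4 or without control 4, Ex3aERKO 2 and Ex3abERKO 2 together. Nr5a2 (LRH-1), a nuclear receptor of granulosa and luteal cells, read 3.35, 3.34, 3.10 and 4.2 in control and 1.28, 0.11, 0.26 and -0.12 in Ex3abERKO, with no overlap. It was 8.66-fold lower (-3.11 ± 0.37, SE, adjusted p = 0.000104, limma), and also lower than in Ex3aERKO (6.21-fold, adjusted p = 0.00118) and Ex3bERKO (5.54-fold, adjusted p = 0.000804). Nr5a1 (SF-1), the related factor that controls steroid-making enzymes, was 4.68-fold lower than in control (-2.23 ± 0.25, SE, adjusted p = 7.68e-05) and 4.54-fold lower than in Ex3bERKO (adjusted p = 0.000172). Foxo1, a forkhead factor of growing follicles, was 2.75-fold lower (adjusted p = 0.038), and this call was lost without any 1 of the 8 control and Ex3abERKO ovaries (adjusted p = 0.0509 to 0.0937), with normexp or without those 3 arrays. The factors that bind the E-box and GC box, named here for the motifs printed above, did not pass: Usf1 differed by 0.15 (adjusted p = 0.658), Usf2 by 0.33 (0.505, its other probe -0.75 at 0.141), Sp1 by 0.17 (0.545) and Sp3 by -0.06 (0.799, another probe 0.31 at 0.11). Without Ex3abERKO 3 the Usf2 difference was 0.71 and passed (adjusted p = 0.0164). In Ex3aERKO 1 of the 16 fell, beside 4.2% of all features. This was Nr2f1 (COUP-TFI), known to bind the nuclear receptor core site of the LH receptor promoter (-1.73 ± 0.46, SE, adjusted p = 0.0304). Nr2f1 was dim, well above background on 4 of 4 control and 3 of 4 Ex3aERKO arrays. That call was lost without any control ovary, Ex3aERKO 2 or Ex3aERKO 4 (adjusted p = 0.0614 to 0.0742), and with normexp, quantile normalization, the replicate block or those 3 arrays left out. In Ex3bERKO none of the 16 was called.

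Genes known to respond to FSH in granulosa cells were mostly lower, where called, in Ex3abERKO. Of 17 measured, 6 fell and none rose against control, beside 11.7% and 10.6% of all features, with a list median of -1.12 against -0.10 for all features. When single arrays were left out 5 to 8 fell, and 1 rose without control 2, Ex3aERKO 3 or Ex3abERKO 4. Cyp11a1, which makes pregnenolone from cholesterol, was 11.2-fold lower (-3.48 ± 0.32, SE, adjusted p = 1.87e-05, limma), and Star, which carries cholesterol into mitochondria, 8.9-fold lower (-3.15 ± 0.44, SE, adjusted p = 0.000291). Fst, the activin-binding protein follistatin, was 5.58-fold lower (adjusted p = 0.00157), Inhba, an activin and inhibin subunit, 3.83-fold lower (adjusted p = 0.00512) and Inha, the inhibin α subunit, 2.68-fold lower (adjusted p = 0.0115). Gja1, which encodes a connexin of the gap junctions between granulosa cells, was 2.17-fold lower (adjusted p = 0.0346). The Gja1 call was lost without control 1, 2 or 4 or Ex3abERKO 2 or 4 (adjusted p = 0.0521 to 0.108), without control 4, Ex3aERKO 2 and Ex3abERKO 2 together, and with median scaling, normexp, the slide as a block or only the groups compared. Cyp19a1 (aromatase), the classical FSH-induced gene, did not fall with them: it differed by 1.10 (adjusted p = 0.216), and without control 2 by 1.77, which passed as higher (adjusted p = 0.0186).

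In Ex3aERKO the same list split. Cyp19a1 was 9.02-fold higher (3.17 ± 0.60, SE, adjusted p = 0.0049, limma), which was not called without control 4, Ex3aERKO 2 and Ex3abERKO 2 together, while 3 genes fell and the median was -0.12. Cyp11a1 was 3.83-fold lower (adjusted p = 0.00218). Star was 3.05-fold lower (adjusted p = 0.0386), a call that was lost without control 1, 3 or 4, Ex3aERKO 1, 3 or 4 or Ex3bERKO 1 (adjusted p = 0.0507 to 0.118) and with median scaling, normexp, the replicate block or only the groups compared. Sgk1, a kinase induced by FSH, was 2.68-fold lower (adjusted p = 0.0228), but not without control 3, control 4 or Ex3aERKO 1 (adjusted p = 0.0507 to 0.0797) or with normexp, and its other probe read 0.05 (adjusted p = 0.981). Without control 4, Ex3aERKO 2 and Ex3abERKO 2 together neither Star nor Sgk1 was called. The count of genes that fell was 1 without control 3, control 4 or Ex3aERKO 1, and also without control 4, Ex3aERKO 2 and Ex3abERKO 2 together, and 2 rose without control 2. For comparison, 3.83% of all features rose and 4.2% fell. In Ex3bERKO 2 of the 17 fell and the median was 0.18: Star fell by 2.63 (SE 0.44, adjusted p = 0.00957) and Sgk1 fell by 2.36 (SE 0.35, adjusted p = 0.00433), whose other probe read 0.18 (adjusted p = 0.979). Neither was called with only the groups compared, nor was Star without those 3 arrays together. Of all features 0.628% fell in this comparison.

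The step from a single to the double knockout lowered 8 FSH-responsive genes from the Ex3aERKO level, with none higher and a median of -1.19. Inhba was 7.93-fold lower (-2.99 ± 0.43, SE, adjusted p = 0.00137, limma) and Fst 4.43-fold lower (adjusted p = 0.0115), the latter not called with only the groups compared. The count was 5 without Ex3aERKO 1, Ex3abERKO 2 or Ex3abERKO 4, and without control 4, Ex3aERKO 2 and Ex3abERKO 2 together, and 3.32% of all features fell. From the Ex3bERKO level 8 fell and 1 rose, with a median of -0.74, and Cyp11a1 was 5.37-fold lower (-2.43 ± 0.32, SE, adjusted p = 0.000442). Of all features 8.41% fell. That count of 8 was 3 without Ex3abERKO 4 and without control 4, Ex3aERKO 2 and Ex3abERKO 2 together, 4 without Ex3bERKO 1, Ex3bERKO 4 or Ex3abERKO 2, 5 without Ex3bERKO 3, and 1 with the slide as a fixed block.

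Genes induced by LH around ovulation moved both ways. Of 19 measured, 3 rose and 4 fell in Ex3abERKO against control, beside 10.6% and 11.7% of all features, with a median of -0.15 against -0.10. Sult1e1, the estrogen sulfotransferase, was 35.6-fold higher (5.15 ± 1.23, SE, adjusted p = 0.00799, limma). Ptgs2, the prostaglandin synthase of ovulation, was well above background on 0 of 4 control and 4 of 4 Ex3abERKO arrays and was at least 6.46-fold higher (adjusted p = 0.000968). This bound sets the Ex3abERKO mean against the lowest signal that counts as well above background, and holds only for the scanner's processed signal. Tnfaip6, a protein of the cumulus matrix, was 5.28-fold higher (adjusted p = 0.000882). Neither Ptgs2 (0.29, adjusted p = 0.729) nor Tnfaip6 (1.11, adjusted p = 0.162) was called with normexp, which left 1 gene higher. Star fell with Runx2, a transcription factor induced in the ovulating follicle, which was 4.45-fold lower (-2.16 ± 0.48, SE, adjusted p = 0.00538). Without control 4, Ex3aERKO 2 and Ex3abERKO 2 together 2 rose and 2 fell, and neither Sult1e1 nor Runx2 was called.

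In Ex3aERKO 4 of the ovulation genes rose and 3 fell, beside 3.83% and 4.2% of all features, with a median of -0.14. Without control 4, Ex3aERKO 2 and Ex3abERKO 2 together 2 rose and 2 fell, and with normexp 1 rose. Sult1e1 was 90.5-fold higher (6.5 ± 1.23, SE, adjusted p = 0.00492, limma), though not called without those 3 arrays. Areg, which encodes the EGF-like factor amphiregulin, was called higher (adjusted p = 0.00291). Areg was well above background on 4 of 4 Ex3aERKO arrays and 1 of 4 control arrays, so no fold is given, and with normexp it differed by 0.48 (adjusted p = 0.597). In Ex3bERKO 2 of the 19 fell and none rose, beside 0.628% and 0.386% of all features, with a median of 0.00. The count that fell was 4 without control 2 and 1 without those 3 arrays. Runx2 was 16.6-fold lower (-4.05 ± 0.48, SE, adjusted p = 0.00114), and Star, given above, was the other.

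Theca and Leydig genes known to respond to LH were split in every knockout. In Ex3abERKO 9 of 15 fell and 3 rose against control (8 to 10 fell when single arrays were left out), beside 11.7% and 10.6% of all features, with a median of -1.63 against -0.10 for all features. Srd5a1, the steroid 5α-reductase, was 20.9-fold lower (-4.39 ± 0.36, SE, adjusted p = 7.43e-06, limma), and Cyp11a1 and Star, which are also in the FSH-responsive list, fell as given above. Hsd11b1, which makes active glucocorticoid, was 8.26-fold higher (3.05 ± 0.60, SE, adjusted p = 0.00244), and Por, the electron donor of P450 enzymes, was higher by 0.70 (SE 0.17, adjusted p = 0.00831). Insl3, a Leydig and theca hormone, was 11.2-fold higher (adjusted p = 0.0472), a call lost without any control or Ex3aERKO ovary or Ex3abERKO 2, 3 or 4 (adjusted p = 0.0545 to 0.124), with normexp, no filter or the slide as a block, and without control 4, Ex3aERKO 2 and Ex3abERKO 2 together. In Ex3aERKO 4 rose and 6 fell, beside 3.83% and 4.2% of all features, with a median of -0.71, and 3 rose and 2 fell without those 3 arrays. Insl3 was 120-fold higher (6.90 ± 1.18, SE, adjusted p = 0.00273), Hsd17b3, which makes testosterone, 76.3-fold higher (6.25 ± 0.80, SE, adjusted p = 0.000447), Cyp17a1, which makes androgens, 6.78-fold higher (adjusted p = 0.000701), and Srd5a1 6.83-fold lower (adjusted p = 0.000447).

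In Ex3bERKO 2 of the 15 theca and Leydig genes rose and 1 fell (2 without control 2), beside 0.386% and 0.628% of all features, with a median of -0.64. Without control 4, Ex3aERKO 2 and Ex3abERKO 2 together 1 rose and none fell. Cyp17a1 was 6.75-fold higher (2.76 ± 0.38, SE, adjusted p = 0.00297, limma), which was not called with only the groups compared. Hsd17b3 was 13.9-fold higher (3.79 ± 0.80, SE, adjusted p = 0.037), but the call was lost without any control ovary, Ex3aERKO 1, 2 or 3, Ex3bERKO 2 or 3, or Ex3abERKO 2 or 4 (adjusted p = 0.0501 to 0.124), with normexp, with only the groups compared and without those 3 arrays. From the single to the double knockout several of these genes fell. Cyp17a1 was 7.91-fold lower than in Ex3aERKO (adjusted p = 0.000768) and 7.88-fold lower than in Ex3bERKO (adjusted p = 0.000395), and Hsd17b3 was 20.8-fold lower than in Ex3aERKO (adjusted p = 0.00548). Against Ex3bERKO, Hsd17b3 differed by -1.92 ± 0.80 (SE), which was not called (adjusted p = 0.121), and by -2.58 without Ex3bERKO 4, which passed (adjusted p = 0.0485). Srd5a1 was 13.4-fold lower than in Ex3bERKO (adjusted p = 4.01e-05). Against Ex3aERKO 7 of the 15 fell and 1 rose, beside 3.32% and 4.4% of all features, with a median of -1.43. Against Ex3bERKO 8 fell and 2 rose, beside 8.41% and 8.23% of all features, with a median of -1.53. The interaction passed for 4 of the 15, all negative, beside 1.74% of all features, with a list median of -0.31. It passed for 2 without control 4 or without those 3 arrays. Among the 4 were Hsd17b3 (-8.17 ± 1.14, SE, adjusted p = 0.00198) and Cyp17a1 (-5.74 ± 0.54, SE, adjusted p = 0.000213).

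**Figure D4:**
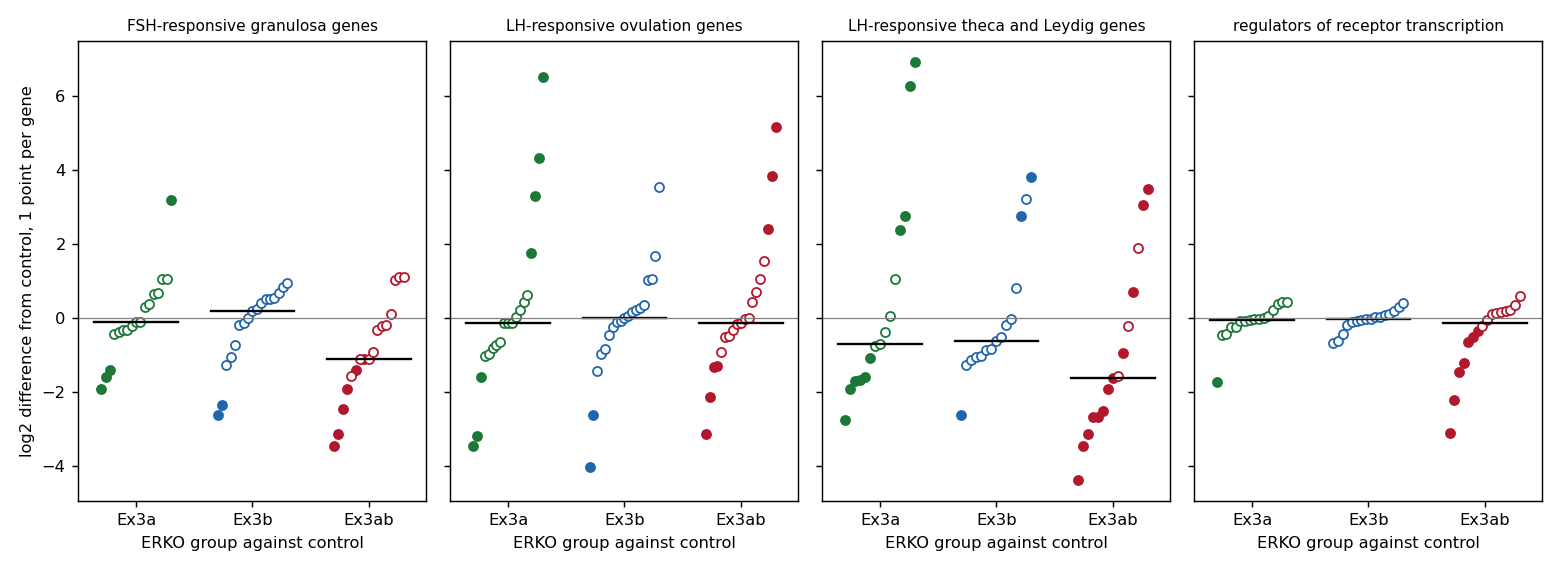
Log2 difference from control of each measured gene, 1 point per gene, in 4 of the lists and in each knockout; filled points have an adjusted p under 0.05 and the line is the list median. The Ex3abERKO medians are -1.12 for FSH-responsive genes, -0.15 for ovulation genes, -1.63 for theca and Leydig genes and -0.14 for regulators of transcription.

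Fshr and Lhcgr lie next to each other on chromosome 17, in the RefSeq order Ppp1r21, Ston1, Gtf2a1l, Lhcgr, Fshr. Gtf2a1l, a germ cell form of a general transcription factor and the gene beside Lhcgr, read -3.12, -2.41, -2.48 and -2.98 in control and -5.16, -4.71, -4.21 and -5.0 in Ex3abERKO, with no overlap (4.06-fold lower, adjusted p = 0.00271, limma). In Ex3aERKO, where Lhcgr was not called, Gtf2a1l was -4.53, -5.99, -4.83 and -4.0, again below all controls (4.27-fold lower, adjusted p = 0.0057). Epcam, an epithelial adhesion protein whose gene lies on the same chromosome, rose 3.44-fold in Ex3abERKO (adjusted p = 0.0211), but not without control 1, Ex3abERKO 2 or Ex3abERKO 3 (adjusted p = 0.0504 to 0.0635) or with normexp. Nor was Epcam called without control 4, Ex3aERKO 2 and Ex3abERKO 2 together. Ston1 and Ppp1r21, which lie beyond Gtf2a1l, differed by 0.30 (adjusted p = 0.685) and 0.19 (adjusted p = 0.267).

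The genes whose levels most resembled each receptor were found by Pearson's r over the 16 arrays among 18228 genes, as a description in which the arrays share the 4 group means. For Lhcgr these were Elovl6, a fatty acid elongase (0.944), Nr5a2 (0.939), Kif3c, a kinesin (0.915), Abhd6, a lipase (0.915) and Gatc (0.905). For Fshr they were Mcph1 (0.934), Anapc7, a subunit of the anaphase-promoting complex (0.932), Obsl1 (0.931), Gnb5, a G protein β subunit (0.920) and Mbnl2, a splicing regulator (0.919). After the group means were taken out, the highest r for Lhcgr were with Bdnf (0.849), Lpp (0.837), Impa2 (0.807), Actr3b (0.802) and Cited2 (0.786). For Fshr they were with Apex1 (0.895), Mbnl2 (0.890), Me3 (0.888), Accs (0.885) and Efl1 (0.883). Mbnl2 was the only gene named under both measures for 1 receptor, and none was named for both receptors.

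The ovaries also differed in markers of the cells that carry the receptors. In bulk ovary RNA fewer cells of a type and less RNA per cell cannot be told apart. Granulosa markers summed over 14 genes ran on the log2 scale from 6.08 to 6.95 in Ex3abERKO, where 6 fell and 2 rose, against 7.05 to 7.63 in control. When single arrays were left out 5 to 8 fell and 0 to 2 rose, fewer than 2 without any of 12 arrays. The sums were 7.15 to 8.37 in Ex3aERKO (3 rose and 1 fell, none without control 2, 3 or 4 or Ex3aERKO 3 or 4) and 6.87 to 7.66 in Ex3bERKO (none called, and 1 higher without Ex3abERKO 3). Without control 4, Ex3aERKO 2 and Ex3abERKO 2 together 1 rose and 4 fell in Ex3abERKO, and 1 rose and none fell in Ex3aERKO. Markers of theca and Leydig cells (10 genes) ran from 5.51 to 5.82 in Ex3abERKO, where 3 rose and 3 fell, against 6.93 to 7.58 in control. They were 7.24 to 7.56 in Ex3aERKO and 6.44 to 7.27 in Ex3bERKO. Both sums, like both receptors, were lowest in Ex3abERKO, without overlap with control. A sum is set mostly by its brightest genes. The theca and Leydig list had a median of 0.04 in Ex3abERKO against control, so these genes did not fall as a set. Luteal markers (12 genes) ran from 7.25 to 8.89 in control. Against this, 7 fell in Ex3aERKO (sums of 5.6 to 6.80), 4 in Ex3bERKO (5.62 to 7.79, 7 without control 2) and 7 in Ex3abERKO (5.49 to 6.5), with none higher. Without those 3 arrays 4, 2 and 5 fell. Some marker genes (Star, Cyp11a1, Cyp17a1, Insl3, Hsd17b3, Cyp19a1, Fst, Inha, Gja1, Nr5a2, Runx2) are in the lists above as well. The granulosa list and its sums include Esr2, a targeted gene and 1 of the 6 that fell in Ex3abERKO.

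Markers of cells that are not the usual sites of the receptors in the ovary moved too. The shares of all features that rose were 3.83% in Ex3aERKO, 0.386% in Ex3bERKO and 10.6% in Ex3abERKO. Those that fell were 4.2%, 0.628% and 11.7%. Sertoli markers (16 genes) ran from 5.97 to 6.53 in control. Of them 7 rose in Ex3aERKO (sums of 6.57 to 7.54), 3 in Ex3bERKO (6.37 to 6.86) and 10 in Ex3abERKO (6.52 to 7.98), where 1 fell. The 3 in Ex3bERKO were 1 without control 1, 3 or 4 or Ex3bERKO 1 or 3, and without control 4, Ex3aERKO 2 and Ex3abERKO 2 together, which left none lower in Ex3abERKO. Dmrt1, a defining Sertoli factor, was well above background on no control, Ex3aERKO or Ex3bERKO array and on 4 of 4 Ex3abERKO arrays. On the scanner's processed signal only, it was at least 2.51-fold higher in Ex3abERKO than in control (adjusted p = 0.000728, limma). Its probe passed the filter only through these 4 arrays, so this call, 1 of the 10, is no separate support. With normexp the Dmrt1 difference was -0.23 (adjusted p = 0.776). Oocyte markers (11 genes) were between 3.84 and 4.91 in control and between 4.09 and 5.65 in Ex3bERKO, but 0.72 to 2.87 in Ex3aERKO, where 8 fell, and 2.16 to 2.91 in Ex3abERKO, where 6 fell. Without those 3 arrays these counts were 3 and 4. Macrophage markers (10 genes) ran from 7.65 to 8.28 in control and 9.12 to 9.22 in Ex3abERKO, where all 10 rose, with the single knockouts between (8.40 to 8.90 with ERα lost, where 3 rose, and 8.04 to 8.73 with ERβ lost). The 3 were 1 without control 3, Ex3aERKO 2 or Ex3aERKO 3, 5 without Ex3aERKO 4 and 0 without control 4, Ex3aERKO 2 and Ex3abERKO 2 together. The summed endothelial markers ran from 5.04 to 5.54 in control, 5.03 to 5.77 in Ex3aERKO and 5.68 to 6.12 in Ex3abERKO. In Ex3abERKO the sum was above control without overlap, although more genes were called lower than higher. Of 10 endothelial markers 1 rose and 6 fell in Ex3aERKO (list median -0.94). In Ex3abERKO 2 rose and 5 fell (list median -0.54). When single arrays were left out 4 to 7 and 2 to 6 fell, the latter count being 2 without control 1 and 3 without control 2, control 4, Ex3abERKO 2 or Ex3abERKO 4, and 1 fell in each without control 4, Ex3aERKO 2 and Ex3abERKO 2 together. The 1 that rose in Ex3aERKO was not called without any of 10 arrays and 2 rose without Ex3aERKO 4. Surface epithelium and oviduct markers ran from 3.63 to 4.09 in control, 4.67 to 6.49 in Ex3aERKO and 4.99 to 6.97 in Ex3abERKO. Adipose markers ran from 3.84 to 4.97 in control and 5.70 to 6.63 in Ex3abERKO. Liver markers ran from -0.71 to 0.24 in control, 0.37 to 7.08 in Ex3aERKO and 2.24 to 3.58 in Ex3abERKO. In Ex3abERKO 5 of 10 epithelial, 1 of 6 adipose and 1 of 6 liver markers were called higher and none lower. The epithelial count there was 2 to 7 when single arrays were left out, and 0 to 1 liver markers fell. That epithelial count was 2 with normexp or without control 4, Ex3aERKO 2 and Ex3abERKO 2 together. In Ex3aERKO 3 epithelial markers rose and none fell (3 to 6 rose when single arrays were left out). Without those 3 arrays 1 rose there, and 1 liver marker fell in Ex3abERKO. The part of these shifts in the receptor values was not tested. Without control 4, Ex3aERKO 2 and Ex3abERKO 2 together, Lhcgr in Ex3abERKO against control was -4.07 (adjusted p = 0.00503, limma) and the Fshr interaction -2.81 (adjusted p = 0.0426).

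**Figure D5:**
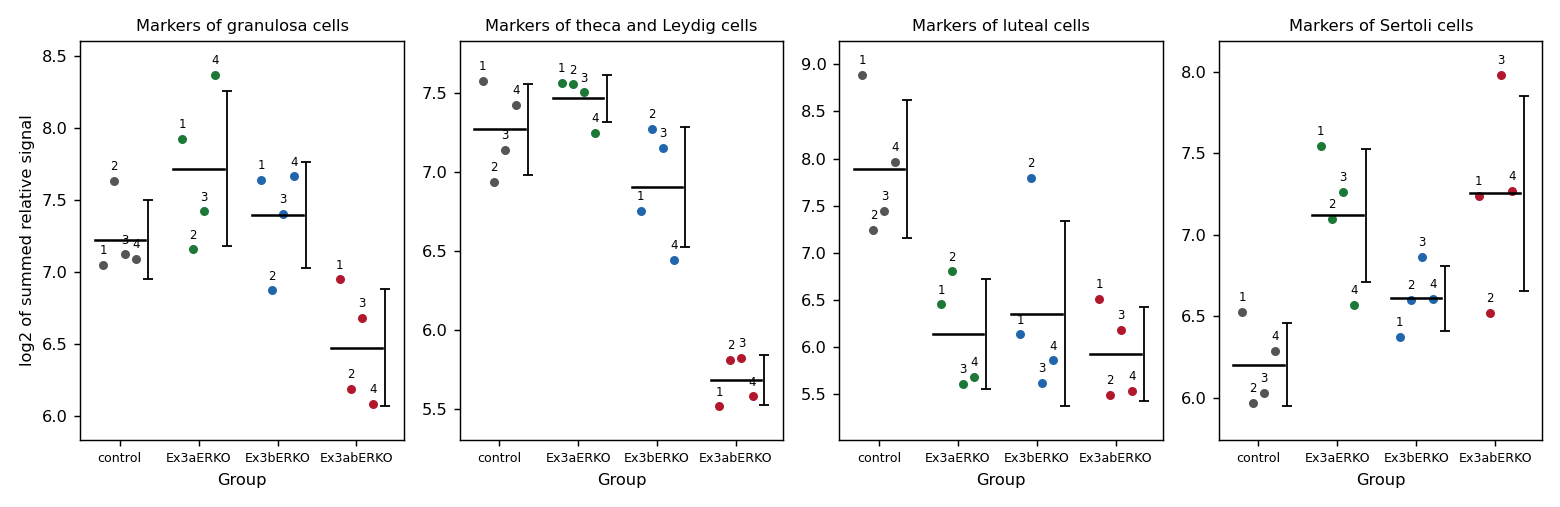
Log2 of the summed relative signal of marker genes for granulosa cells (14), theca and Leydig cells (10), luteal cells (12) and Sertoli cells (16) in each ovary, by group, with the mean as a line and 1 SD as a bar (n = 4). Granulosa and theca and Leydig sums are lowest in Ex3abERKO (6.08 to 6.95 and 5.51 to 5.82), and luteal sums are below the control range of 7.25 to 8.89 in all Ex3aERKO and Ex3abERKO ovaries.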

How the data were processed

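Cy3-labelled cRNA from total RNA of 16 whole ovaries was read on 1-colour arrays; per the file headers, the authors extracted spot intensity with Feature Extraction 9.5.3.1 (9.5 in the submitters' processing notes), and the deposited processed signal is background-corrected. These intensities were divided by each array's 75th percentile and put on a log2 scale. Control spots and 54 to 106 outlier spots per array were left out, saturated spots (0 to 7) kept, and spots of a probe averaged. Probes well above background on at least 4 of 16 arrays were kept (36217 of 41174), and a gene was read by its kept probe with the highest mean. Of the probes, 22951 were named through their accession in RefSeq, 6659 by the file's symbol, 3109 by an older symbol and 8455 had no name. The deposited series table holds the same signals on a linear scale (column medians 149 to 253), as a share of 0.999 of the values matched to a relative difference under 0.001.

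limma 3.58.1 in R 4.3.3 fitted 1 mean per group over all 16 arrays (12 residual degrees of freedom), p-values were adjusted over 24367 features, and Lhcgr minus Fshr was tested by an exact permutation test. The members, the gene lists and the 3 arrays left out together were chosen with earlier results of these data known. Named genes were up to 3 called genes per list with the largest change (5 for FSH- and LH-responsive lists), of which the text gives some. Por, Gja1, Arrb1, Grk5, Zp3, Dmrt1, Usf1, Usf2, Sp1, Sp3, Ston1, Ppp1r21 and the ligand genes were named outside this rule, after values were seen. Irs2, Fbxo11, Zp1, Hbb-b1, Ahsp and Serpina1a had no probe here, and Pgr and Ttr were not kept. A gene of the lists is not reported here. All 4 groups were present on slides 1 and 4, whereas slide 2 lacked Ex3bERKO and slide 3 Ex3abERKO. Alternatives covered scaling, background, normalization, filters, slide, weights, replicate block, groups in the fit and each array left out. Replicate numbers did not pair the samples: same-numbered arrays had correlations of deviations from -0.296 to 0.450, and 7 of 24 pairs were over 0.1. Arrays of different groups on 1 slide deviated together more often (median correlation 0.284, 18 of 22 over 0.1); neither the limma fit nor the permutation test has a slide term, so within-slide values and slide blocks are given as alternatives.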

Additional observations from a re-analysis of the deposited data

Results flagged for a closer look

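For Fshr, Lhcgr and their difference no ovary stood apart from its group by Dixon's criterion. Among the genes whose levels or differences the text gives and Lhcgr minus Fshr, 18 of 208 groups of 4 had 1 ovary with a gap to the others above the critical value of 0.829, where chance gives about 1 in 20. Control 2 was that ovary for 5 genes: Cyp19a1 (3.56, others 0.70 to 1.01), Areg (-5.77, others -8.92 to -8.58), Runx2 (1.33, others 2.77 to 2.83), Inhba (6.09, others 4.71 to 4.87) and Esr2 (0.34, others -0.33 to -0.22). The same ovary had the highest control level of Fshr, -0.08. Control 4 stood apart for Nr5a1 (-1.45, others -0.72 to -0.60).

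Ex3aERKO 4 stood apart for Foxo1 (5.40, others 2.96 to 3.08), Nr2f1 (-8.13, others -6.94 to -6.69), Insl3 (6.49, others 6.72 to 6.74) and Esr1 (-3.66, others -2.19 to -1.89), and it had the highest Fshr of the series. Ex3aERKO 2 stood apart for Star (4.02, others 3.26 to 3.33). Ex3bERKO 2 did so for Sgk1 (3.62, others 1.84 to 2.08), Gtf2a1l (-3.28, others -1.94 to -1.82) and Nr5a2 (2.07, others 3.04 to 3.17), and it had the lowest Lhcgr of its group. Ex3bERKO 3 stood apart for Nr2f1 (-7.64, others -5.69 to -5.39) and Ex3bERKO 4 for Epcam (-1.87) and Lhb (-2.42, others -0.99 to -0.71). Ex3abERKO 3 stood apart for Usf2 (-0.33, others 1.05 to 1.3).

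The effect of ERβ loss differed with ERα by the interaction test for Fshr (-2.83, adjusted p = 0.0111, limma), Hsd17b3 (-8.17, adjusted p = 0.00198) and Cyp17a1 (-5.74, adjusted p = 0.000213).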

How the results depend on the processing

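Among the called differences of the receptors and of the other genes recomputed, 1 changed sign: Dmrt1 in Ex3abERKO against control, -0.23 with normexp. The uncalled Lhcgr difference between the single knockouts lay on either side of 0 (-0.46 to 0.36), and other probes of Sgk1 and Rapgef4 read opposite to the probe used. Lhcgr in Ex3abERKO stayed called under all of them, at -4.81 to -3.57 against control (adjusted p = 4.87e-05 to 0.00503, limma), -3.84 to -2.70 against Ex3aERKO (0.00141 to 0.037) and -3.84 to -2.65 against Ex3bERKO (0.00053 to 0.0156). Fshr stayed called against Ex3aERKO (-2.57 to -1.97, 0.00145 to 0.0317) and in the interaction (-3.09 to -2.37, 0.00466 to 0.0426). Fshr in Ex3aERKO against control, not called as reported, passed with median scaling (1.28, 0.0491), a filter on all 16 arrays (1.26, 0.0467), the slide as a fixed (1.26, 0.0192) or random block (1.26, 0.0292), array weights (1.05, 0.0301) and a trended robust fit (1.26, 0.0399), and ranged from 0.91 to 1.53. In Ex3abERKO against control it passed with weights (-1.04, 0.0266), the trended robust fit (-1.06, 0.0476) and only the groups compared (-1.06, 0.0496), and ranged from -1.22 to -0.79 with 1 array left out. Against Ex3bERKO it was lost with the slide as a fixed block (-1.11, 0.0601), and the Lhcgr interaction passed with weights (-2.71, 0.043). The replicate block changed no call of either receptor (Fshr interaction 0.0203, Lhcgr in Ex3abERKO against control 0.000263). The causes were not tested.

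Counts of features called moved more. Against control they were 1957 for Ex3aERKO (555 without control 4, Ex3aERKO 2 and Ex3abERKO 2, a choice added after seeing the data, to 5160 with array weights), 247 for Ex3bERKO (63 to 799, same settings) and 5437 for Ex3abERKO (3118 with normexp to 8550 with weights). Ex3abERKO gave 1883 against Ex3aERKO (603 with only the groups compared to 2564 with weights) and 4055 against Ex3bERKO (1926 with normexp to 6109 with weights). The single knockouts gave 571 (117 with only the groups compared to 1505 with weights) and the interaction 867 (249 without those 3 arrays to 1748 with weights). With normexp the median of all features was -0.34 in Ex3aERKO, -0.27 in Ex3bERKO and -0.36 in Ex3abERKO against control, in place of -0.08, 0.01 and -0.10. The interaction with only the groups compared, and Lhcgr minus Fshr with the replicate block, could not be fitted.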
